A study of Rattus norvegicus with 12 samples.

Results

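A set of 10 genes of adipokine biology was followed in rat ovary: the secreted proteins Adipoq, Lep, Retn, Cfd and Rarres2, the fat cell enzyme Car3 and lipid chaperone Fabp4, and the receptors Adipor1, Adipor2 and Lepr. They were taken by symbol from a table of 19730 genes, and all 10 symbols were found, each with 1 gene identifier. The 12 libraries came from whole ovaries of wild type Sprague Dawley rats labelled as 15 weeks old, and fell into 3 groups of 4 rats, named Control, PCOS and PCOS-MV. Control rats were untreated and ate standard pellets. PCOS rats received oral letrozole, an inhibitor of the aromatase that turns androgens into oestrogens, at 1 mg/kg/day for 30 days together with a high-fat diet. PCOS-MV rats had the same induction and then mogroside V, a sweet triterpene glycoside of monk fruit, by gavage at 600 mg/kg/day for 30 days. The study describes all rats as killed at the end of the treatment period, so PCOS ovaries were taken after the 30 days of letrozole had passed. A vehicle gavage of PCOS or Control rats during the mogroside V period is not described. Drug and diet were given together, so their contributions cannot be told apart, rats were taken into the model by their vaginal smears, the mogroside V was a fruit preparation rather than the pure compound, and the diet during the mogroside V period is not stated.

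Adipokines are proteins that fat cells release into blood. Adiponectin (Adipoq) acts through AdipoR1 and AdipoR2 to raise AMPK and PPARα activity and ceramidase activity, leptin (Lep) signals energy stores through LepR and the kinase JAK2, and chemerin (Rarres2) draws immune cells through CMKLR1 and is made by many tissues besides fat. In the ovary the adiponectin and leptin receptors are found on follicular and stromal cells, whereas the ovary is embedded in a fat pad and bursa that can be carried along at dissection. Resistin (Retn), adipsin (Cfd, complement factor D) and carbonic anhydrase 3 (Car3) are abundant products of rodent white fat, and Fabp4 is made by adipocytes, macrophages and capillary endothelium.

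Values are FPKM, a fragment count scaled by transcript length and by the size of the library, which allow levels of different genes to be set side by side. In Control ovaries the order of mean levels was Adipor2 (122 FPKM), Adipor1 (72.3), Cfd (38.7), Car3 (26.7), Rarres2 (20.04), Fabp4 (17.98), Adipoq (13.2), Lepr (6.48), Retn (0.643) and Lep (0.584). The 4 libraries of Adipor2 lay above all 4 of Adipor1, and those of Adipor1 above all 4 of Cfd, while each neighbouring pair from Cfd down to Lepr overlapped, as did Retn and Lep. In PCOS ovaries Rarres2 (43.0 FPKM) stood between the receptors Adipor1 (113) and Adipor2 (101) on one side and Cfd (17.0) on the other, with Lepr at 5.79, Car3 at 3.41, Fabp4 at 2.15, Adipoq at 1.52, Lep at 0.0459 and Retn at 0.0137. In PCOS-MV ovaries the levels ran from Adipor2 (108 FPKM) and Adipor1 (75.7) through Rarres2 (20.8), Fabp4 (19.7), Cfd (12.7) and Lepr (8.23) to Car3 (3.12), Adipoq (1.27), Lep (0.0261) and Retn (0.0236). In PCOS the neighbours Adipor1 and Adipor2, Lepr and Car3, Car3 and Fabp4, Fabp4 and Adipoq, and Lep and Retn overlapped, and in PCOS-MV all neighbours did except Adipor1 and Rarres2 and Adipoq and Lep. In every group the receptors for adiponectin were thus the most abundant of the 10 transcripts, and the transcripts for leptin and resistin the scarcest.

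**Figure D1:**
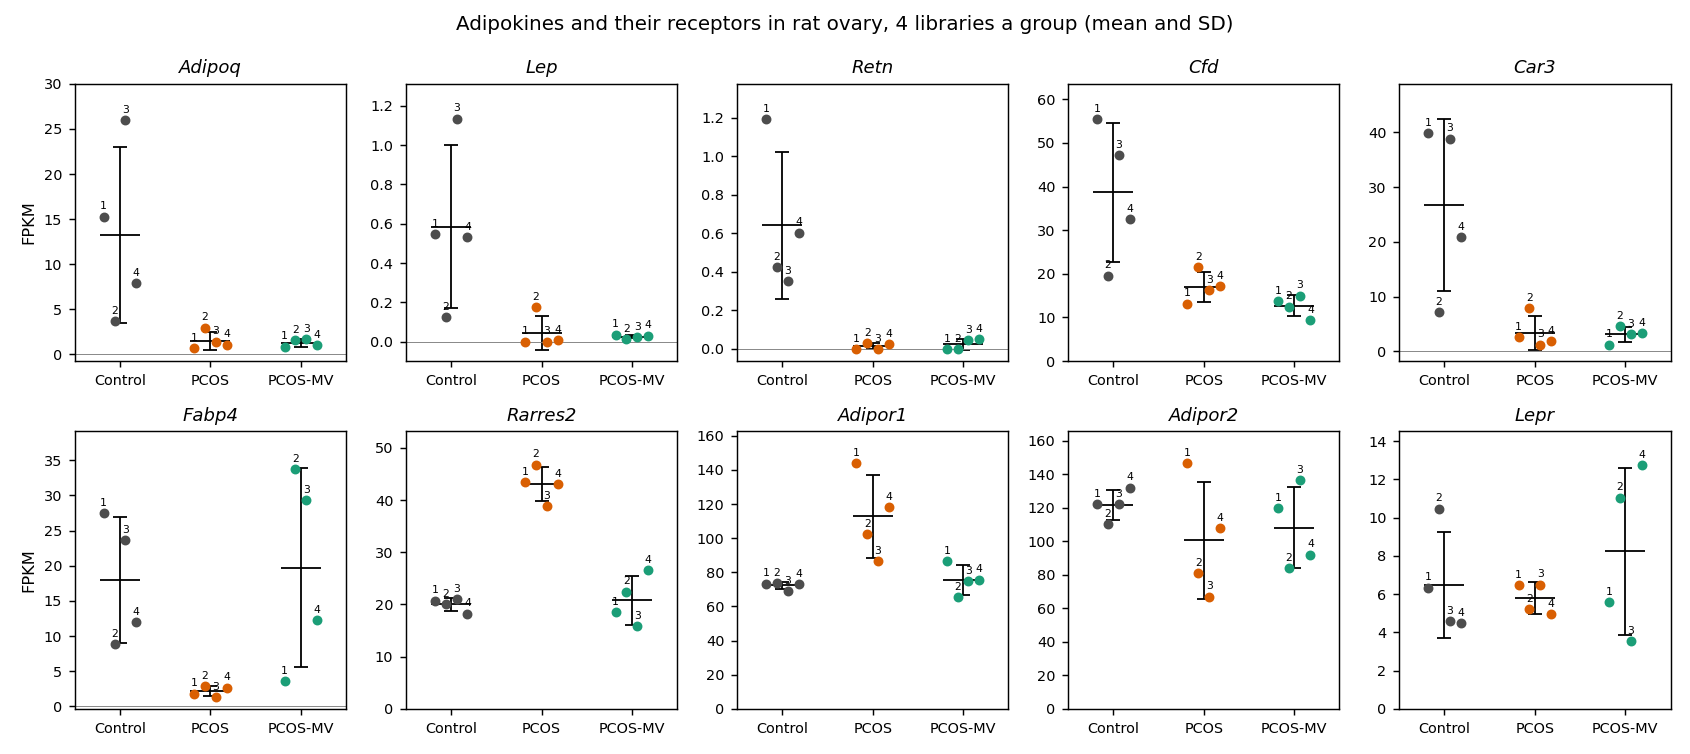
FPKM (vertical axes, linear) of the 10 genes in Control, PCOS and PCOS-MV ovaries, with 1 numbered point for each library and the mean and SD of 4 in black. Adipoq, Lep, Retn, Cfd and Car3 were high and spread out in Control and low in both other groups, Rarres2 and Adipor1 were high in PCOS, and Fabp4 was low in PCOS alone.

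A shortage of fat cells and a lower transcript level per cell cannot be told apart in RNA from a whole ovary. A list of 10 transcripts, called adipocyte-restricted here without a test of that restriction in these data, was therefore read beside every result. It held Plin1 (perilipin, the coat of the fat droplet), Cidec (droplet fusion), Adrb3, Lgals12, Trarg1, Acvr1c, Plin4, Aqp7, Pck1 and Thrsp. Their summed level was 6.28 to 36.3 FPKM in Control, 2.47 to 5.04 in PCOS and 2.31 to 3.12 in PCOS-MV libraries. Control libraries ranked 3, 1, 4, 2 from high to low by this sum, and neither of the other groups reached the lowest of them. Plin1 was 2.33, 0.750, 3.51 and 2.22 FPKM in Control replicates 1 to 4 and at most 0.323 in the other 8 libraries. Cidec was 3.11, 0.710, 5.45 and 2.87 FPKM in Control, was listed at 0 in PCOS replicates 1 and 3, and was at most 0.407 elsewhere. In all 4 PCOS libraries 8 of the 10 markers were below 1 FPKM, as were 9 of 10 in all 4 PCOS-MV libraries and 4 of 10 in Control. Plin4 and Trarg1, which were less confined to the Control group, made up 56.4% to 85.5% of the sum in PCOS and 18.1% to 41.5% in Control.

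Differences between groups were tested with limma on log2(FPKM + 1), with Benjamini-Hochberg adjustment over the 13430 genes whose mean was at least 1 FPKM, and a fold change on this scale understates the change of a low gene. The level filter kept 8 of the 10 genes, and Lep and Retn fell below it. In PCOS against Control, 6 of 8 tested genes passed an adjusted p of 0.05 (75.0%, beside 27.4% of all tested genes): Adipoq, Cfd, Car3 and Fabp4 were lower (4 genes, where 15.6% of all genes were called lower) and Adipor1 and Rarres2 were higher (2 genes, where 11.9% were called higher). In PCOS-MV against PCOS 3 of 8 passed (37.5%, beside 25.7%): Fabp4 was higher (14.3% of all genes were) and Adipor1 and Rarres2 were lower (11.4% of all genes were). In PCOS-MV against Control 0 of 8 passed, beside 0.00745% of all genes, 1 gene, with 3 of the 8 and 1142 of 13430 at an unadjusted p under 0.05. The median log2 fold change of the 8 was -0.69, -0.02 and -0.16 in these comparisons, beside -0.03, 0.03 and -0.00375 over all tested genes.

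**Figure D2:**
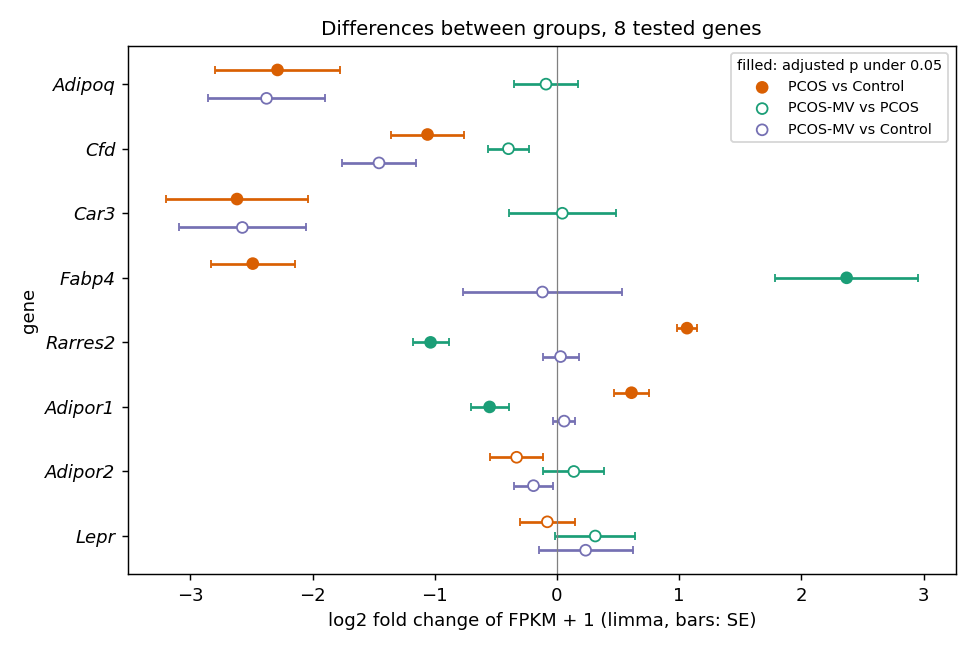
Log2 fold change of FPKM + 1 (horizontal axis) for 8 genes in the 3 comparisons, with limma standard errors as bars and filled points for an adjusted p under 0.05. Rarres2 moved by 1.06 up and 1.03 down with the smallest errors, while Adipoq and Car3 lay between -2.29 and -2.62 in both groups set against Control.

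Adiponectin transcript was lower in PCOS than in Control, and the PCOS-MV values lay with those of PCOS. Adipoq (ENSRNOG00000001821, chromosome 11, 81330293 to 81344488 on the minus strand of the deposited table, whose build is not given in the sources used here) was at 15.3, 3.68, 26.02 and 7.93 FPKM in Control replicates 1 to 4, at 0.654, 2.95, 1.40 and 1.0704 in PCOS and at 0.845, 1.56, 1.70 and 0.987 in PCOS-MV. All 4 Control libraries lay above the other 8, and within Control the highest was 7.06 times the lowest. The mean fell from 13.2 ± 9.78 to 1.52 ± 1.0005 FPKM (SD, n = 4) between Control and PCOS, a log2 fold change of -2.29 ± 0.51 (SE, limma adjusted p = 0.0111, exact permutation p = 0.0286, two-sided). That exact p is the smallest that 4 libraries against 4 can give, and 30 such exact tests were made over the 10 genes and 3 comparisons. PCOS-MV differed from PCOS by -0.09 ± 0.26 on the log2 scale (limma adjusted p = 0.8291), and from Control by -2.38 ± 0.48 with no overlap (limma adjusted p = 0.453, exact permutation p = 0.0286). Adipoq was among the 3 of 8 tested genes, with Cfd and Car3, whose 4 PCOS-MV values lay below all 4 Control values, a pattern that 2.29% of all tested genes had.

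The order of the Control libraries for Adipoq was 3, 1, 4, 2, which was also their order for Plin1, Cidec, Trarg1, Acvr1c, Aqp7, Thrsp and Lep. In PCOS, replicate 2 was the highest library for Adipoq, Lep, Retn, Cfd, Car3, Fabp4 and Rarres2 and for 6 of the 10 markers (Plin1, Cidec, Trarg1, Acvr1c, Aqp7 and Thrsp). Adrb3 and Lgals12 were highest in PCOS replicate 1, with Lgals12 listed at 0 in replicate 2, and Plin4 and Pck1 in replicate 4. Over the 12 libraries, with each group's mean removed, the 3 genes whose deviations were most like those of Adipoq were Thrsp (Pearson r = 0.938), Trarg1 (r = 0.934) and Cidec (r = 0.927), all on the marker list. Only genes averaging at least 1 FPKM were searched, which 4 of the 10 markers did. Thrsp, Trarg1 and Cidec did so only through Control, where they were high, and the remaining marker, Plin4, had r = 0.687. These correlations are descriptions over 12 libraries that share their normalisation, and the 4 Control libraries carry most of the spread. The ratio of Adipoq to the summed markers was 0.586 to 0.841 in Control, 0.251 to 0.585 in PCOS and 0.282 to 0.545 in PCOS-MV, so Adipoq differed more between groups than the sum did. In PCOS, however, that sum was mostly Plin4 and Trarg1. From Control to PCOS the means of Plin1 (2.20 to 0.121 FPKM), Cidec, Acvr1c, Aqp7 and Thrsp fell by a larger factor than that of Adipoq (13.2 to 1.52). Those of Adrb3, Lgals12, Trarg1, Plin4 and Pck1 fell by a smaller one.

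**Figure D3:**
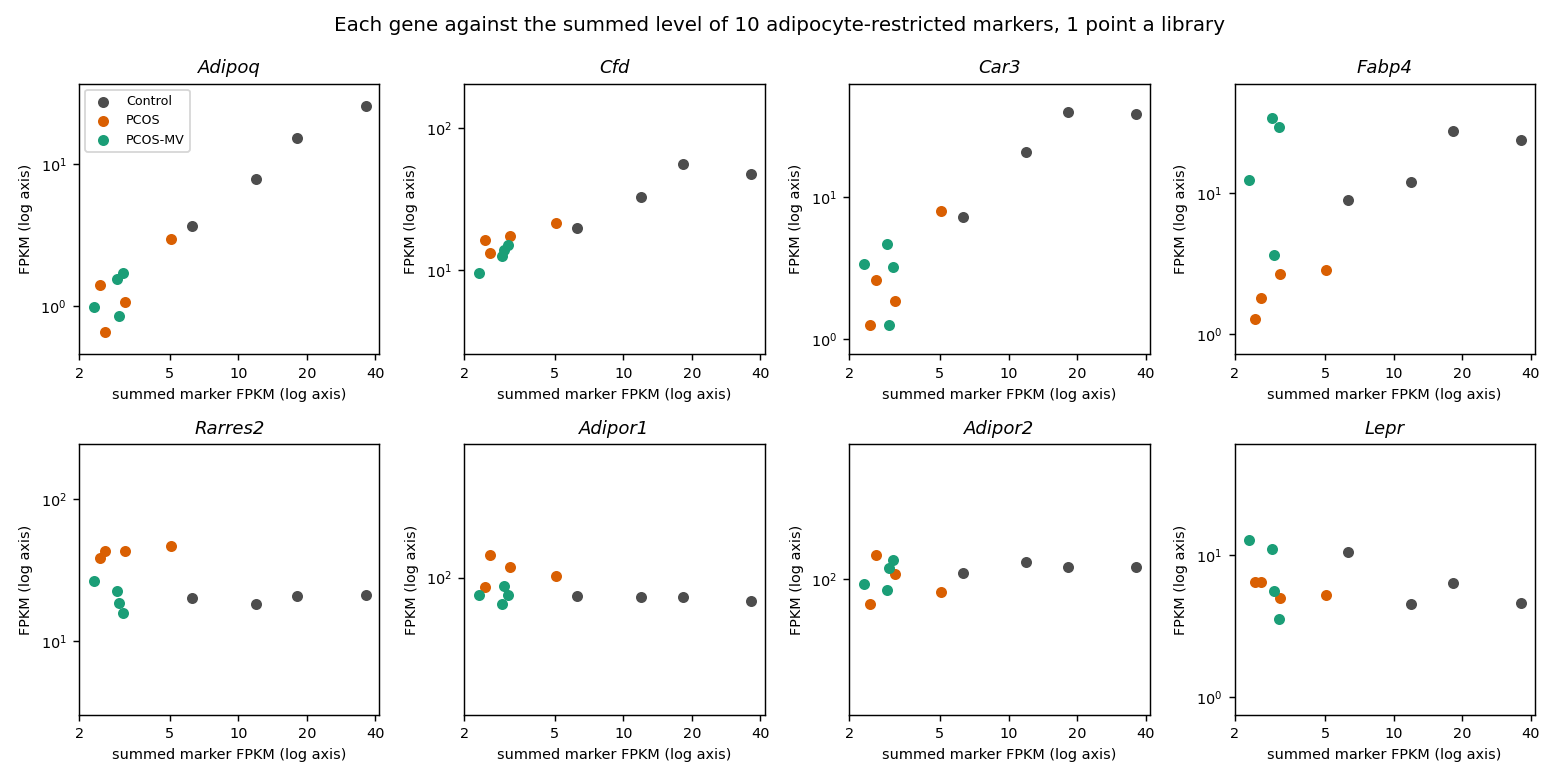
FPKM of 8 genes (vertical, log axis) against the summed FPKM of the 10 adipocyte-restricted markers (horizontal, log axis), 1 point for each of the 12 libraries. Adipoq, Cfd and Car3 were highest in the Control libraries with the highest marker sums, Rarres2, Adipor1, Adipor2 and Lepr showed no such slope within Control, and Fabp4 in PCOS-MV reached 33.8 FPKM at marker sums between 2.31 and 3.12.

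The upstream sequences of Adipoq and Lep are shown because these transcripts fell together with the adipocyte markers, and those of Cfd and Rarres2 because Cfd kept a level in every library and Rarres2 rose. RefSeq promoters (build GRCr8) matched 8 of the 10 genes by symbol, and Fabp4 and Car3 are named only. Each line holds the 250 bases before the transcription start, 5′ to 3′ on the gene's strand, and capitals mark matches on either strand to CCAAT (present in 34.0% of 33469 promoters of this length), TATAA (24.0%), the C/EBP palindrome TTGCGCAA (0.140%) and AGGTCA, the hexamer that many nuclear receptors bind (14.1%). The motifs were chosen after the sequences had been read, and a match is a run of letters rather than a known site.
Adipoq, chr11:91240170-91240419, minus strand: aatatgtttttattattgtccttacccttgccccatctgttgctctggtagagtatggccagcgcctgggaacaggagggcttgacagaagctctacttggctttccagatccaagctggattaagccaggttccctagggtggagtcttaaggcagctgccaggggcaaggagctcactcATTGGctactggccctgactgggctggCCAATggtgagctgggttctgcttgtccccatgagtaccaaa
Lep, chr4:58626288-58626537, plus strand: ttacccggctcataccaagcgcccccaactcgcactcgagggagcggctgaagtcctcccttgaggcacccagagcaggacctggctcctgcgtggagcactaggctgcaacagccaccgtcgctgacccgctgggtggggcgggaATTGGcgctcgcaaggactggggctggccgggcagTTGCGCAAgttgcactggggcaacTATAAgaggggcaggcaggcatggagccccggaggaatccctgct
Cfd, chr7:10465497-10465746, minus strand: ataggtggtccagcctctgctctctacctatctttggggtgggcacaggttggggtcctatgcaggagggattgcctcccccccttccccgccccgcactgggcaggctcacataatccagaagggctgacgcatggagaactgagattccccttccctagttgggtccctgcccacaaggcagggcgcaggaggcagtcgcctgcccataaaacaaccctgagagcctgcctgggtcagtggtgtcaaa
Rarres2, chr4:78856409-78856658, minus strand: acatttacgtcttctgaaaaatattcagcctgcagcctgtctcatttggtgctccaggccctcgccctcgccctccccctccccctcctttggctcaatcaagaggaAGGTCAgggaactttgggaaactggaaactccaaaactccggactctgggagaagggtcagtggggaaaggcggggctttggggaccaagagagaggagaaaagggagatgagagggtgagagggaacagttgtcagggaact
In these windows Adipoq held CCAAT once on each strand, Lep held the C/EBP palindrome at 69 to 62 bases before its start, a TATAA element and CCAAT on the opposite strand, Rarres2 held AGGTCA at 143 to 138 bases, and Cfd held no match to these letters. Among the matched genes not printed, Retn held AGGTCA at 169 and at 7 bases before its start, Adipor2 held TATAA at 194, 137 and 97 bases, and Adipor1 and Lepr held no match.

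Leptin and resistin were scarce. Lep was at 0.546, 0.126, 1.14 and 0.531 FPKM in Control, listed at 0 in PCOS replicates 1 and 3 and at 0.175 and 0.00847 in replicates 2 and 4, and at 0.0361, 0.0130, 0.0247 and 0.0306 in PCOS-MV. PCOS replicate 2 exceeded the lowest Control library, whereas all 4 PCOS-MV libraries lay below Control. The two-sided exact permutation p for Lep was 0.0571 in PCOS against Control, 0.0286 in PCOS-MV against Control and 1 in PCOS-MV against PCOS. Retn was at 1.19, 0.425, 0.350 and 0.605 FPKM in Control and at most 0.0499 in the other 8 libraries, with 4 of these 8 listed at 0. Each of the 4 Control libraries of Retn exceeded those 8, and the exact permutation p was 0.0286 against PCOS and against PCOS-MV and 0.657 in PCOS-MV against PCOS. Unlike Lep, Retn was highest in Control replicate 1, and its lowest Control value was in replicate 3, the library with the highest marker sum. These levels are so low that they rest on few fragments in PCOS and PCOS-MV libraries, and no fold change is given.

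Car3 and Cfd, the other products of rodent fat, were both lower in PCOS than in Control, Car3 with the larger fold. Car3 was at 39.8, 7.22, 38.8 and 20.9 FPKM in Control, 2.61, 7.95, 1.24 and 1.85 in PCOS and 1.25, 4.65, 3.22 and 3.35 in PCOS-MV. PCOS replicate 2 alone exceeded a Control library, replicate 2, and all PCOS-MV values lay below Control. The log2 fold change of Car3 in PCOS against Control was -2.62 ± 0.58 (SE, limma adjusted p = 0.0109, exact permutation p = 0.0571), in PCOS-MV against PCOS 0.04 ± 0.44 (limma adjusted p = 0.954) and in PCOS-MV against Control -2.57 ± 0.52 (limma adjusted p = 0.453, exact permutation p = 0.0286). Cfd was at 55.5, 19.6, 47.2 and 32.5 FPKM in Control, 13.2, 21.5, 16.2 and 17.2 in PCOS and 13.7, 12.5, 15.0 and 9.45 in PCOS-MV. Here too PCOS replicate 2 exceeded Control replicate 2. The log2 fold change of Cfd in PCOS against Control was -1.06 ± 0.30 (SE, limma adjusted p = 0.0293, exact permutation p = 0.0571).

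Cfd stayed between 9.45 and 21.5 FPKM in the 8 libraries where Plin1 was at most 0.323, and its ratio to the summed markers was 1.30 to 3.12 in Control, 4.27 to 6.56 in PCOS and 4.08 to 4.81 in PCOS-MV. For Car3 the same ratio was 1.07 to 2.19 in Control, 0.503 to 1.58 in PCOS and 0.419 to 1.59 in PCOS-MV. The genes most like Cfd in their within-group deviations were Tmem14a (r = 0.931), Lipt2 (r = 0.917) and the adipocyte marker Trarg1 (r = 0.890). For Car3 they were Usp29 (r = 0.947), Rsad2 (r = 0.911) and Gbp7 (r = 0.899), with r = 0.827 for Cidec, 0.753 for Trarg1, 0.737 for Thrsp and 0.428 for Plin4. Cfd overlaps Arhgap45 on the same strand, and Arhgap45 was at 5.01, 5.81 and 5.32 FPKM in the means of Control, PCOS and PCOS-MV. The Cfd call was close to its limit: leaving out 1 library at a time, 6 of 8 fits lost it, with an adjusted p of 0.0579 without Control replicate 1, 0.0582 without Control replicate 3, 0.0532 without Control replicate 4, 0.0745 without PCOS replicate 1, 0.0686 without PCOS replicate 3 and 0.0659 without PCOS replicate 4.

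Fabp4 fell with the fat cell markers in PCOS but rose without them in PCOS-MV. It was at 27.5, 8.85, 23.6 and 12.01 FPKM in Control, 1.80, 2.87, 1.28 and 2.66 in PCOS and 3.63, 33.8, 29.3 and 12.2 in PCOS-MV. All 4 PCOS values lay below all 8 others, and PCOS-MV held both a value close to PCOS, in replicate 1, and the highest value of the 12 libraries, in replicate 2. The log2 fold change was -2.49 ± 0.34 in PCOS against Control (SE, limma adjusted p = 0.00107, exact permutation p = 0.0286) and 2.37 ± 0.58 in PCOS-MV against PCOS (limma adjusted p = 0.0186, exact permutation p = 0.0286). Without PCOS replicate 3 the latter was 2.22 with a limma adjusted p of 0.0532. Between PCOS-MV and Control it was -0.12 ± 0.65 (limma adjusted p = 0.967). In the library with the highest Fabp4, PCOS-MV replicate 2, Plin1 was at 0.161 FPKM and Adipoq at 1.56, and the ratio of Fabp4 to the summed markers was 1.21 to 11.6 in PCOS-MV against 0.650 to 1.51 in Control and 0.516 to 0.840 in PCOS.

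Endothelial and macrophage transcripts were read beside Fabp4, since both cell types also make it. Of 11 endothelial markers tested, 8 were lower and 1 higher in PCOS than in Control, and 6 were higher and 1 lower in PCOS-MV than in PCOS. Among all tested genes 27.4% and 25.7% were called in these comparisons. Gpihbp1, the capillary anchor of lipoprotein lipase, was at a mean of 27.0 FPKM in Control, 4.08 in PCOS and 19.7 in PCOS-MV (log2 fold changes -2.43 and 1.80, limma adjusted p = 0.000800 and 0.0210). Flt1, a VEGF receptor, was at 14.0, 5.50 and 11.1 FPKM (limma adjusted p = 5.28e-05 and 0.0055), whereas Vwf was higher in PCOS at 13.1 against 9.56 FPKM (limma adjusted p = 0.0211). Of 11 macrophage markers, 2 were higher in PCOS, Adgre1 and Csf1r, and in PCOS-MV against PCOS these were lower while Cd68, C1qb and C1qc were higher, with Cd68 at 17.7 against 9.89 FPKM (limma adjusted p = 0.00266). The summed macrophage markers were 326 to 467 FPKM in Control, 374 to 423 in PCOS and 424 to 627 in PCOS-MV, and the summed endothelial markers were 192 to 263, 128 to 161 and 169 to 250 FPKM. With 1 library left out in turn, the calls of Gpihbp1 (PCOS-MV against PCOS), Vwf and C1qb were each lost in 3 of 8 fits, at adjusted p values of at most 0.0553, 0.0632 and 0.0567, and that of Csf1r in PCOS-MV in 1 fit, at 0.0607 (limma). The part of either cell type in the Fabp4 values was not tested.

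Chemerin transcript was higher in PCOS than in Control, where Adipoq, Cfd, Car3 and Fabp4 were lower, and fell again in PCOS-MV, where Adipoq, Cfd and Car3 were not called against PCOS. Rarres2 (ENSRNOG00000024705, chromosome 4, 78205812 to 78208767 on the minus strand of the deposited table) was at 20.8, 20.1, 21.0 and 18.2 FPKM in Control, 43.4, 46.8, 38.8 and 43.1 in PCOS and 18.5, 22.5, 15.8 and 26.5 in PCOS-MV. All 4 PCOS libraries lay above the other 8, and Control and PCOS-MV overlapped. The mean rose from 20.04 ± 1.26 to 43.0 ± 3.27 FPKM (SD, n = 4), a log2 fold change of 1.06 ± 0.08 (SE, limma adjusted p = 4.38e-05, exact permutation p = 0.0286), and was 20.8 ± 4.69 in PCOS-MV, a log2 fold change of -1.03 ± 0.15 against PCOS (limma adjusted p = 0.00172, exact permutation p = 0.0286). PCOS-MV and Control differed by 0.03 ± 0.15 (limma adjusted p = 0.964). Adipoq, Adipor1, Fabp4 and Rarres2 were the 4 of 8 tested genes without overlap between PCOS and Control (31.0% of all tested genes had none), and Fabp4 and Rarres2 the 2 of 8 without overlap between PCOS-MV and PCOS (30.0% of all).

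Within Control the highest Rarres2 value was 1.15 times the lowest, where the marker sum ran from 6.28 to 36.3 FPKM. Rarres2 deviations had r = 0.107 with Cidec, 0.152 with Thrsp, -0.137 with Trarg1 and 0.373 with Plin4 over the 12 libraries. The genes most like Rarres2 were Fcgrt (r = 0.971), Nsmce1 (r = 0.968) and Steap3 (r = 0.960). The neighbouring gene Lrrc61 lies on the opposite strand and overlaps Rarres2, and whether strand was used in counting is not stated. Lrrc61 was at a mean of 2.34, 2.60 and 2.95 FPKM in Control, PCOS and PCOS-MV, with no call in any comparison. Of the chemerin receptors, Cmklr1, which signals in immune cells, was higher in PCOS at 3.83 against 2.44 FPKM (log2 fold change 0.49, limma adjusted p = 0.0170). Ccrl2, which presents chemerin without signalling, was lower in PCOS-MV than in PCOS at 2.23 against 3.56 FPKM (limma adjusted p = 0.0490, exact permutation p = 0.0571), and Gpr1 was at or below 0.200 FPKM in every library. The Ccrl2 call was lost in 6 of 8 fits that left out 1 library (limma adjusted p up to 0.124), and that of Cmklr1 in 1 of 8 (0.0505).

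The adiponectin receptors were abundant and differed from each other. Adipor1 (chromosome 13, 51240911 to 51260228 on the plus strand) was at 73.4, 73.9, 69.0 and 73.0 FPKM in Control, 144, 102, 86.4 and 118 in PCOS and 86.7, 65.4, 75.0 and 75.7 in PCOS-MV. The 4 PCOS values were above all Control values, and PCOS-MV replicate 1 was just above the lowest PCOS value. The log2 fold change was 0.61 ± 0.14 in PCOS against Control (SE, limma adjusted p = 0.0130, exact permutation p = 0.0286) and -0.55 ± 0.16 in PCOS-MV against PCOS (limma adjusted p = 0.0329, exact permutation p = 0.0571). The fall in PCOS-MV was lost in 6 of 8 fits that left out 1 library, with a limma adjusted p of 0.0579, 0.0578 and 0.0861 without PCOS replicates 1, 2 and 4 and of 0.0817, 0.0580 and 0.0654 without PCOS-MV replicates 2, 3 and 4.

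Adipor2 was at 122, 110, 122 and 132 FPKM in Control, 147, 81.2, 67.0 and 108 in PCOS and 120, 84.2, 137 and 92.1 in PCOS-MV. The groups overlapped, and no comparison passed: -0.33 ± 0.22 in PCOS against Control (log2, limma adjusted p = 0.290), 0.14 ± 0.25 in PCOS-MV against PCOS (limma adjusted p = 0.722) and -0.19 ± 0.16 in PCOS-MV against Control (limma adjusted p = 0.719). The 4 PCOS libraries held the same order for both receptors, 1, 4, 2, 3 from high to low. Without PCOS replicate 1, the highest of them, the Adipor2 difference in PCOS was -0.53 with a limma adjusted p of 0.0456. The deviations of Adipor1 were most like those of B3gnt2 (r = 0.952), Cdc42bpb (r = 0.947) and Rmdn3 (r = 0.937), those of Adipor2 like Imp4 (r = 0.962), Asnsd1 (r = 0.951) and Blm (r = 0.949). With the markers Cidec, Trarg1, Plin4 and Thrsp, in that order, the r was -0.193, -0.169, -0.0457 and -0.179 for Adipor1. For Adipor2 it was 0.0281, 0.108, -0.0773 and 0.00441.

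The leptin receptor did not separate the groups. Lepr was at 6.34, 10.5, 4.61 and 4.49 FPKM in Control, 6.49, 5.23, 6.50 and 4.96 in PCOS and 5.58, 11.05, 3.56 and 12.7 in PCOS-MV. Replicates 2 and 4 of PCOS-MV and replicate 2 of Control were above all other libraries, and every pair of groups overlapped. The log2 fold changes were -0.08 ± 0.23, 0.31 ± 0.33 and 0.23 ± 0.38 for PCOS against Control, PCOS-MV against PCOS and PCOS-MV against Control (limma adjusted p = 0.825, 0.519 and 0.866). The genes most like Lepr were Mipol1 (r = 0.957), the chemokine Cxcl12 (r = 0.942) and S1pr2 (r = 0.932). With the adipocyte markers its r was negative, at -0.675 for Trarg1, -0.494 for Cidec, -0.420 for Thrsp and -0.117 for Plin4. Values for the separate long and short LepR isoforms are not analysed here.

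The level of the adipocyte-restricted markers was next entered as a covariate of the model, as the mean log2(FPKM + 1) of the 10 markers in each library. With it, PCOS minus Control was -0.30 ± 0.29 for Adipoq (log2, limma adjusted p = 0.563), -0.06 ± 0.30 for Cfd (limma adjusted p = 0.933), -0.68 ± 0.61 for Car3 (limma adjusted p = 0.543) and -1.33 ± 0.35 for Fabp4 (limma adjusted p = 0.0579). Rarres2 stayed at 1.18 ± 0.14 (limma adjusted p = 0.00308), and Adipor1 at 0.53 ± 0.25 (limma adjusted p = 0.253), so Rarres2 was the 1 gene of 8 still called, in a fit that called 9.08% of all tested genes. The covariate itself did not overlap between Control and PCOS, so marker level and group cannot be told apart by this fit. In PCOS-MV against PCOS, where the marker levels overlapped, Fabp4 was 2.48 ± 0.60 (limma adjusted p = 0.0261), Rarres2 -1.04 ± 0.16 (limma adjusted p = 0.00485) and Adipor1 -0.56 ± 0.17 (limma adjusted p = 0.0524), in a fit that called 2821 of all 13430 genes. Most of the markers were below 1 FPKM in these 2 groups. Plin4 and Trarg1, less confined to Control, made up 56.4% to 85.5% of the summed markers in PCOS and 64.4% to 83.3% in PCOS-MV. The covariate there can therefore not be taken as a measure of fat cell content.

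A further fit, added after the data were seen, left out Control replicates 1 and 3, the Control libraries with the most marker transcript. Against the remaining pair, Adipoq in PCOS was -1.44 ± 0.39 (log2, limma adjusted p = 0.0357), Fabp4 -1.88 ± 0.24 (limma adjusted p = 0.00221) and Rarres2 1.12 ± 0.10 (limma adjusted p = 0.000558). Car3 at -1.82 ± 0.60 (limma adjusted p = 0.0690), Cfd at -0.56 ± 0.24 (limma adjusted p = 0.130) and Adipor1 at 0.59 ± 0.19 (limma adjusted p = 0.0650) were not called. Replicates 1 and 3 were also the highest Control libraries for Adipoq, Cfd, Car3 and Fabp4, so leaving them out had to make these folds smaller, and the change in size carries no information of its own. In this fit 24.7% of all tested genes were called.

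**Figure D4:**
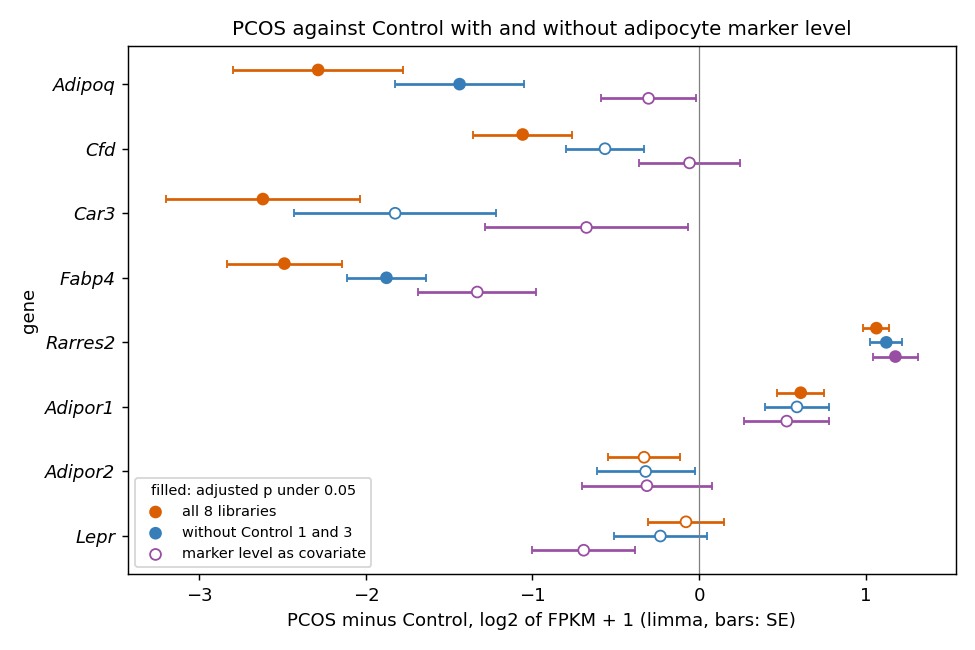
PCOS minus Control on the log2(FPKM + 1) scale (horizontal axis, bars SE) for 8 genes from all 8 libraries, without Control replicates 1 and 3, and with the adipocyte marker level as covariate, filled where the limma adjusted p was under 0.05. Adipoq was -2.29, -1.44 and -0.30 in these fits, and Rarres2 lay between 1.06 and 1.18.

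Downstream of the adiponectin receptors, 15 of 17 listed genes were tested, and 2 were higher and 5 lower in PCOS, where 27.4% of all genes were called. Their median log2 fold change was -0.20, beside -0.03 over all tested genes. Appl2, an adaptor that competes with APPL1 at the receptor, was at 15.9, 16.8, 16.7 and 19.7 FPKM in Control, 53.0, 50.5, 49.9 and 52.3 in PCOS and 21.2, 22.3, 17.7 and 24.7 in PCOS-MV. All 4 PCOS values stood far above the other 8 (log2 fold changes 1.53 ± 0.08 and -1.23 ± 0.10, limma adjusted p = 8.21e-06 and 0.000128), while its counterpart Appl1 was slightly lower in PCOS (-0.34, limma adjusted p = 0.0128). Ppara, the fatty acid sensing receptor that adiponectin signalling activates, rose from 3.58 to 10.7 FPKM and was 3.39 in PCOS-MV (limma adjusted p = 9.15e-05 and 0.00115). Asah1, an acid ceramidase, fell from 130 to 62.9 FPKM and was 104 in PCOS-MV (limma adjusted p = 0.000207 and 0.0289). Prkag2, an AMPK subunit, was 10.2, 7.14 and 14.9 FPKM in the 3 groups (limma adjusted p = 0.0273 and 0.0373). With 1 library left out in turn, the Prkag2 calls were lost in 4 and 5 of 8 fits and the Asah1 rise in 5 of 8 (limma adjusted p up to 0.0734, 0.0858 and 0.0720). In PCOS-MV against PCOS 4 of the 15 were higher and 2 lower (25.7% of all genes were called), and in PCOS-MV against Control none passed (0.00745% of all).

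**Figure D5:**
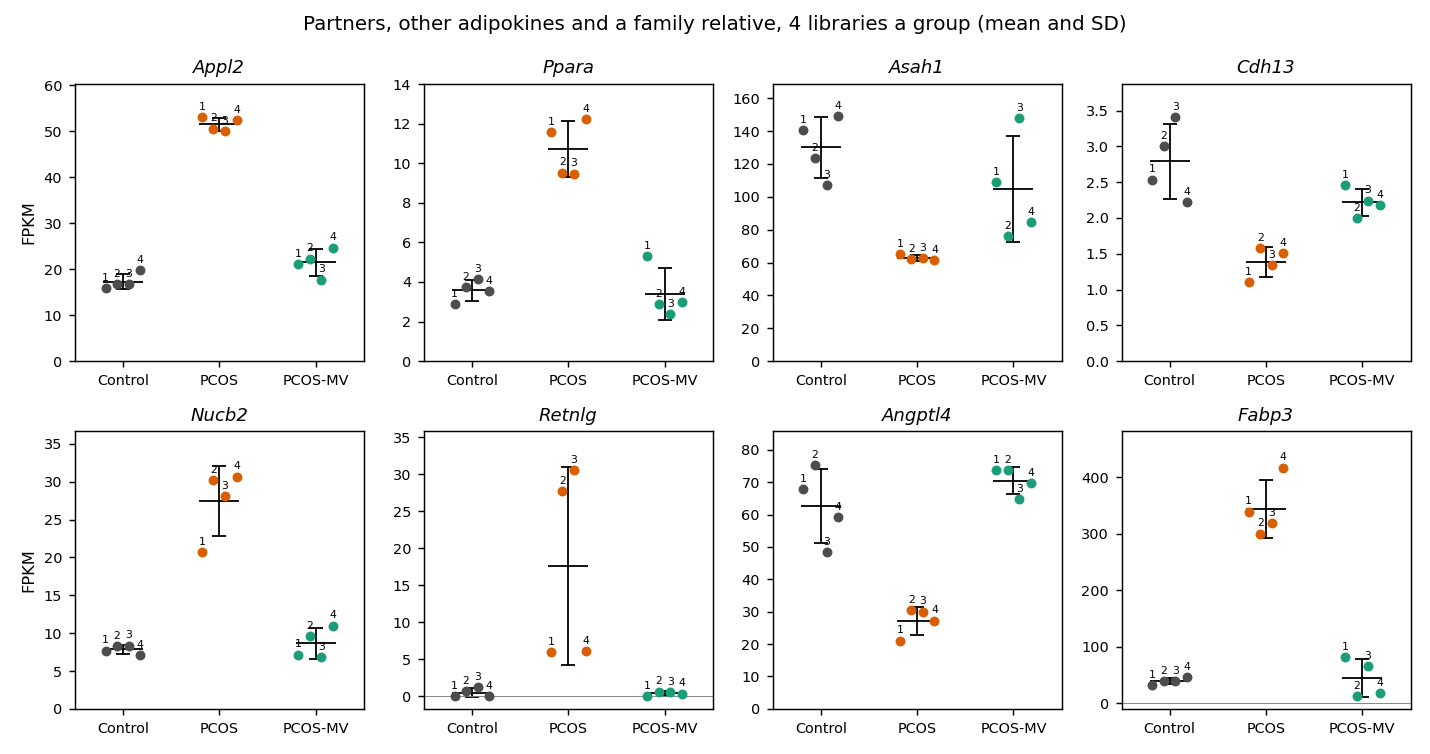
FPKM (vertical axes, linear) of 8 genes around the adipokines in Control, PCOS and PCOS-MV ovaries, with 1 numbered point for each library and the mean and SD of 4 in black. Appl2, Ppara, Nucb2, Retnlg and Fabp3 were high in PCOS alone, and Asah1, Cdh13 and Angptl4 were low in PCOS.

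Of 12 leptin receptor pathway genes tested, 1 was called in PCOS against Control (27.4% of all genes were) and 2 in PCOS-MV against PCOS (25.7% of all genes). The 1 lower in PCOS was Ptpn1, a phosphatase that acts on JAK2, at 18.8 against 25.5 FPKM (log2 fold change -0.42, limma adjusted p = 0.0127). In PCOS-MV against PCOS Ptpn1 was higher (26.2 FPKM, limma adjusted p = 0.00721) and Jak2 lower (23.1 against 40.4 FPKM, limma adjusted p = 0.00236). Stat3 had means that differed by -0.03 and 0.03 on the log2 scale in these comparisons (limma adjusted p = 0.899 in both). Cdh13, T-cadherin, which binds circulating adiponectin on endothelium, was at 2.53, 3.00, 3.41 and 2.22 FPKM in Control, 1.11, 1.57, 1.34 and 1.51 in PCOS and 2.45, 1.9998, 2.24 and 2.18 in PCOS-MV. The 4 PCOS values lay below all others (limma adjusted p = 0.00605 and 0.0117). Calr, the chaperone calreticulin that also binds adiponectin, was higher in PCOS-MV than in PCOS at 428 against 318 FPKM (limma adjusted p = 0.0252), a call lost in 5 of 8 fits that left out 1 library (up to 0.0666).

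Of 21 other adipokine genes tested, 6 were higher and 4 lower in PCOS (27.4% of all genes were called). In PCOS-MV against PCOS 4 were higher and 4 lower (25.7% of all genes were called). The 6 higher in PCOS and the 4 lower in PCOS-MV include Retnlg, which is not read as a test for the reason given below. Nucb2, the precursor of nesfatin, was at 7.68, 8.34, 8.35 and 7.08 FPKM in Control, 20.7, 30.2, 28.1 and 30.7 in PCOS and 7.16, 9.61, 6.81 and 11.01 in PCOS-MV (log2 fold changes 1.67 ± 0.13 and -1.57 ± 0.17, limma adjusted p = 4.95e-05 and 0.000576). Retnlg, a resistin relative of myeloid cells, was at 6.005, 27.7, 30.6 and 6.08 FPKM in PCOS and at most 1.28 in the other 8 libraries. It passed the level filter only through PCOS, the group in which it was high, so its levels are given with no test. Angptl4, an inhibitor of lipoprotein lipase, was at 27.2 FPKM in PCOS and 70.5 in PCOS-MV (log2 fold change 1.35, limma adjusted p = 0.000204). The peptide apelin, Apln, was at 19.7, 5.84 and 18.1 FPKM (limma adjusted p = 0.0393 and 0.0160, the first with overlap between groups and lost in 6 of 8 fits that left out 1 library, up to 0.0968), and its receptor Aplnr was 20.2, 7.497 and 15.97 FPKM (limma adjusted p = 0.00545 and 0.0145).

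Among the fatty acid binding relatives of Fabp4, Fabp5 was also lower in PCOS than in the other groups, and Fabp3 moved the opposite way. Fabp3, the heart type, was at 31.6, 39.5, 39.2 and 45.5 FPKM in Control, 339, 299.9, 319 and 417 in PCOS and 81.9, 13.03, 65.4 and 17.97 in PCOS-MV (log2 fold changes 3.11 ± 0.14 and -3.30 ± 0.55, limma adjusted p = 5.13e-06 and 0.00346). Fabp6 was 394, 27.01 and 166 FPKM in Control, PCOS and PCOS-MV, lower in PCOS than in Control (-3.85, limma adjusted p = 5.41e-05) and not called in PCOS-MV against PCOS (2.07, limma adjusted p = 0.0652, with overlap). Fabp5, the epidermal type, was 8.85, 4.47 and 12.5 FPKM, and all 4 PCOS values lay below the other 8 (-0.82 and 1.20, limma adjusted p = 0.0172 and 0.0232, the second lost in 5 of 8 fits that left out 1 library, up to 0.0615). Among the carbonic anhydrases, Car13 was 3.19, 1.27 and 3.56 FPKM in the 3 groups (limma adjusted p = 0.00101 and 0.00152) and Car2 was 7.27 in Control and 28.1 in PCOS with overlap (limma adjusted p = 0.0110). Paqr7, a progesterone receptor of the same family as AdipoR1 and AdipoR2, was 36.7 FPKM in PCOS and 16.5 in PCOS-MV (-1.10, limma adjusted p = 0.00125). Over these family relatives 4 of 13 tested were higher and 3 lower in PCOS (27.4% of all genes were called), and 3 were higher and 5 lower in PCOS-MV than in PCOS (25.7%).

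Other fat and ovarian cell markers gave the setting. Of the adipocyte-restricted markers 4 of 10 passed the level filter. Cidec (means 3.03, 0.109 and 0.127 FPKM), Thrsp (5.20, 0.210 and 0.0966) and Trarg1 (2.05, 0.812 and 0.693) passed only through Control, where they were high, so their levels are given with no test. Plin4, which passed in every group, was not called in PCOS against Control (-0.25, limma adjusted p = 0.378). Of 9 markers that adipocytes share with other cells, 3 were lower in PCOS, Scd (88.3 to 31.9 FPKM, limma adjusted p = 0.00994), Lpl (15.7 to 6.86 FPKM, limma adjusted p = 0.00348) and Lipe (15.6 to 9.87 FPKM, limma adjusted p = 0.0491), and 1 was higher in PCOS-MV than in PCOS, Lipe, at 17.6 FPKM (limma adjusted p = 0.00278). Among all tested genes 15.6% were called lower in PCOS and 14.3% higher in PCOS-MV than in PCOS. Cidea, the 1 called gene of 2 tested brown fat markers, was 4.21, 1.57 and 5.29 FPKM in the 3 groups (limma adjusted p = 0.0244, with overlap, and 0.0241). With 1 library left out in turn, the calls of Cidea were lost in 5 of 8 and 4 of 8 fits (limma adjusted p up to 0.0647 and 0.0623). The ovarian label held, with summed granulosa, theca and luteal markers at 556 to 787, 1369 to 3076 and 2972 to 5048 FPKM in Control. The theca sum was mostly Cyp11a1, at a mean of 2194 FPKM in Control beside 34.6 for Cyp17a1, so its range is mainly that of 1 gene. In PCOS against Control 3 of 7 granulosa markers were called higher and 0 lower, 3 of 6 theca markers higher and 2 lower, and 1 of 5 luteal markers higher and 3 lower, beside 11.9% of all genes higher and 15.6% lower. Within the lists the genes went both ways: among theca markers the androgen enzyme Cyp17a1 was 34.6, 1190 and 37.4 FPKM in Control, PCOS and PCOS-MV and the cholesterol cleaving Cyp11a1 2194, 968 and 1492 FPKM. Among luteal markers the cholesterol carrier Star was 2219, 716 and 2054 FPKM and the LH receptor Lhcgr 58.98, 149 and 49.1 FPKM. Among granulosa markers the aromatase Cyp19a1 was 16.7, 58.5 and 11.5 FPKM and Amh, which was not called, 48.9, 28.0 and 41.1 FPKM. The part of these cell types in the levels of Rarres2, Adipor1 and the other receptors was not tested.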

How the data were processed

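RNA of 12 whole rat ovaries was read as 150 base paired ends. The authors deposited 1 table of FPKM values per gene, 4 libraries a group, with the PCOS-MV libraries headed MG. The study's methods name HISAT2 2.0.5 and featureCounts, whereas the submitters' processing notes name STAR 2.5.1b and HTSeq 0.6.0, and the genome build, strand setting and fragment totals are not given in the sources used here. Low values of single-transcript genes lay on steps that implied totals of 30.2M to 36.9M fragments (M, mega) per library, but only 21.9% to 24.3% of them were within 0.02 of a whole multiple (4% by chance), so no count test was run. The authors' group means, fold changes and p-values, also in the table, were not used. Repeated transcript lines (26928) were reduced to 19730 genes.

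The 13430 genes that averaged 1 FPKM or more were compared in pairs of groups on log2(FPKM + 1) with limma 3.58.1 (R 4.3.3, lmFit and eBayes with trend) and Benjamini-Hochberg adjustment, threshold 0.05. Single genes were also tested with an exact two-sided permutation test. Replicates were separate rats, and r between libraries of a group was 0.954 to 0.989. Python 3.11.15, pandas 2.3.3, numpy 2.4.6, scipy 1.17.1 and matplotlib 3.10.9 were used, and the fit was tested on simulated data. The genes and lists were chosen with earlier results of these data known. Besides the 10 genes and the adipocyte-restricted markers, genes were picked as the 2 largest rises and 2 largest falls called in each list. Where none was called the 2 highest were picked, and the 3 most alike by r were picked for each tested gene of the 10. Not every gene so picked is printed. Appl1, Stat3, Gpr1, Aplnr in PCOS-MV and C1qc were added after their values were seen. Amh was also named outside this rule, as were picked genes in further comparisons. Of 8 stromal markers tested, 2 were called higher and 3 lower in PCOS against Control, beside 27.4% of all genes called. Of 2 skeletal muscle markers tested, 0 were called in that comparison, and neither list is described further. Alternatives were a pseudocount of 0.1, no level filter, 1 model over 12 libraries, rescaling by median ratio, a replicate block, each library left out and the marker covariate. The fit without Control replicates 1 and 3 was chosen after seeing the data. Cd36, Ucp1, Dio2, Pecam1, Itgam, Myh2, Akr1c18, Hsd3b1 and Sirt1 were listed but not analysed here.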

Additional observations from a re-analysis of the deposited data

Results flagged for a closer look

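PCOS replicate 2 stood apart from the other 3 PCOS libraries in 6 adipocyte transcripts, by a gap test between the highest library and its neighbour. Lep was 0.175 FPKM there and 0 to 0.00847 in the others, and Cidec was 0.407 against 0 to 0.0272. Trarg1 was 1.18 FPKM against 0.652 to 0.726, Acvr1c 0.147 against 0.0351 to 0.0376, Aqp7 0.147 against 0 in the others, and Thrsp 0.749 against 0 to 0.0908. Of 60 groups of 4 libraries examined, over the 10 genes and the 10 adipocyte-restricted markers, 6 were picked out, and the 6 transcripts share 1 library. A chance rate of about 1 in 20, or 3, would need independent and normally spread values. These groups come from the same libraries and several hold values of 0, so that rate cannot be used as a yardstick here.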

How the results depend on the processing

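In PCOS against Control the number of the 8 genes called fell from 6 to 1 with the adipocyte marker level as covariate (all genes called fell from 3684 to 1220, a count added after the data were seen) and to 3 without Control replicates 1 and 3, a fit also added later (all genes 3312), and was 5 to 6 with 1 library left out (all genes 2762 to 3915). In PCOS-MV against PCOS it was 2 to 3 (all genes 2445 to 3354), and in PCOS-MV against Control 0 throughout, with 1 gene of all called, 1 to 4 with 1 library left out and 0 under a replicate block and under the covariate. Replicate numbers, which the labels tie to nothing shared, were not taken as pairs, since r between same-numbered libraries was over 0.1 in 4 of 12 pairs (-0.053 to 0.216). Between PCOS and PCOS-MV, though, all 4 libraries were closest to their own number (r = 0.101, 0.172, 0.136 and 0.035), a hint from the data only. With the replicate block 5, 3 and 0 of the 8 genes were called in the 3 comparisons, and 21.6%, 22.9% and 0% of all genes. The Cfd fall in PCOS was lost under that block (limma adjusted p = 0.0757) and without the level filter (0.0566), as was the Adipor1 fall in PCOS-MV without the filter (0.0564). Signs turned only in differences that were not called. With the covariate Adipoq was 0.043 in PCOS-MV against PCOS, and against Control Adipor1 was -0.015, Lepr -0.49 and Fabp4 1.11. Without Control replicates 1 and 3 Plin4 was 0.048 in PCOS and Fabp4 0.49 in PCOS-MV against Control. With 1 library left out, Lepr ran from -0.20 to 0.15 in PCOS against Control. In PCOS-MV against PCOS Adipoq ran from -0.27 to 0.15, Car3 from -0.21 to 0.46, Adipor2 from -0.035 to 0.34 and Lep from -0.045 to 0.033. In PCOS-MV against Control Rarres2 ran from -0.090 to 0.15, Adipor1 from -0.0082 to 0.13, Lepr from -0.0022 to 0.53 and Fabp4 from -0.49 to 0.48. The cause of these changes was not tested. Of all gene results under all alternatives 1278 kept direction and call, 157 lost the call, 1 gained it and 23 turned sign. Lep and Retn were too low for more than a comparison of levels.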

Other observations

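PCOS-MV replicates 2 and 4 lay apart from replicates 1 and 3 in several of the genes read. Lepr was 11.05 and 12.7 FPKM against 5.58 and 3.56, and Leprot, which overlaps the leptin receptor locus in mammals, was 54.3 and 60.7 against 39.1 and 40.4. Car2 was 29.6 and 42.2 FPKM against 4.45 and 3.75. Fabp6 was 42.4 and 40.1 FPKM against 260 and 323, and Fabp3 13.03 and 17.97 against 81.9 and 65.4. The theca enzyme Cyp17a1 was 1.57 and 6.41 FPKM against 88.1 and 53.4. The split was seen in the values and was not tested. Adipoq did not share it, at 1.56 and 0.987 FPKM against 0.845 and 1.70, nor did Fabp4, at 33.8 and 12.2 against 3.63 and 29.3.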
